A study of Homo sapiens with 8 samples.

Results

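The nuclear-encoded genes of oxidative phosphorylation were followed through a study of ribosome-bound messenger RNA in brain-metastatic lung cancer cells. Members were the rows of the deposited table whose symbols begin with NDUFA (NDUFAF excepted), NDUFB, NDUFC, NDUFS, NDUFV, UQCR, COX4I, COX5, COX6, COX7, COX8 or ATP5, plus SDHA, SDHB, SDHC, SDHD, CYC1 and CYCS. Of 23368 rows, 93 matched. The pseudogenes ATP5EP2 and UQCRBP1 and the readthrough loci ATP5J2-PTCD1 and NDUFC2-KCTD14 were set aside, which left 89 members. Complex I held 37, complex II 4, complex III 10, cytochrome c 1, complex IV 19 and complex V 18. NDUFA4 and its paralogue NDUFA4L2 were placed with complex IV, since NDUFA4 is now known as a subunit of cytochrome c oxidase. ATP5S and ATP5SL matched by their letters and are not structural subunits of the ATP synthase.

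The cells were H2030-BrM, a derivative of the H2030 lung adenocarcinoma line that forms brain metastases. All 8 libraries came from cells with the lentiviral construct pLVX-EGFP-Rpl10a-IRES-hygro, whose EGFP-tagged ribosomal protein lets anti-EGFP antibodies (19C8 and 19F7) pull down ribosomes and the RNA on them. The groups, with 2 libraries each, were shControl_dish and shControl_slice, both with an shRNA against luciferase, and shL1CAM_dish and shL1CAM_slice, both with an shRNA against the adhesion molecule L1CAM. Dish cells were taken at 0 h from RPMI 1640 with 10% serum, and slice cells after 48 h on a cultured mouse brain slice over a DMEM-based medium with 5% serum, so medium, serum, substrate and time cannot be told apart. The labels call the libraries biological replicates but do not say that the cultures were separate, so p-values measure only the spread between these libraries.

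Oxidative phosphorylation passes electrons from NADH (complex I) and succinate (complex II) through coenzyme Q, complex III and cytochrome c to oxygen at complex IV. Complexes I, III and IV pump protons across the inner mitochondrial membrane, and complex V, the ATP synthase, uses the gradient to make ATP. Complex I, III, IV and V also contain subunits encoded by mitochondrial DNA, and 0 rows of the table carried such a symbol, so only the nuclear part of each complex was seen. Ribosome-bound RNA is an amount of message on tagged ribosomes, not an amount of enzyme or a rate of respiration. In such a pool, fewer cells of a type and less RNA per cell cannot be told apart.

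Values are read counts divided by the authors' size factor for the library, called normalized counts here. The libraries held from 13486212 to 16734651 recovered reads, and a count of 3 reads, the limit that a count of 0 allows, was 2.75 to 3.57 normalized counts. L1CAM checked the labels: it lay at 482 and 440.4 (shControl_dish), 451 and 438 (shControl_slice), 126 and 88.3 (shL1CAM_dish), and 74.7 and 65.4 (shL1CAM_slice). Epithelial keratins KRT8 and KRT18 were abundant in every library, while KRT19 and the alveolar marker SFTPC stayed at or under 4. Defining markers of the slice's own cells, such as GFAP and AQP4 (astrocytes), MOG and OLIG2 (oligodendrocytes), and P2RY12 and TMEM119 (microglia), were at or under 4 in every library. Over whole marker lists, the summed level of 8 astrocyte markers, 5 of them at or under 4 in every library, was 1835.6 to 2405.3 in dish libraries and 1094.6 to 1534.7 in slice libraries. That of 8 oligodendrocyte markers, 4 of them at or under 4, was 4338.3 to 5068.1 and 5392.8 to 6444.2. Their part in the members' values, and that of mouse RNA, was not tested.

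Replicate 2 of shL1CAM_slice stood apart for most members. Of the 81 members that passed the filter for testing (a mean normalized count of at least 10), 63 had their highest value of all libraries there, and 79 were higher than in replicate 1. The median difference between these replicates was 0.581 on the log2 scale, against 0.112 (shControl_dish), 0.00431 (shControl_slice) and 0.0554 (shL1CAM_dish). Members took 2.17% of the reads in that library and 1.608% to 1.801% in the other 7. Complex II and cytochrome c were not high there. Across all genes tested, the SD of the replicate difference was 0.637 (shL1CAM_slice) and 0.218 to 0.303 in the other groups. Counts and medians of all members on shL1CAM_slice, and the members they turn on, are therefore given with and without this library. Because all 4 groups share a single spread estimate, the same was done for the other contrasts. Without replicate 2, shL1CAM_slice has a lone library that is assumed to vary like the other groups. With the L1CAM shRNA, medians by complex or by promoter motif, and counts in other mitochondrial gene lists, are given with all libraries only.

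**Figure D1:**
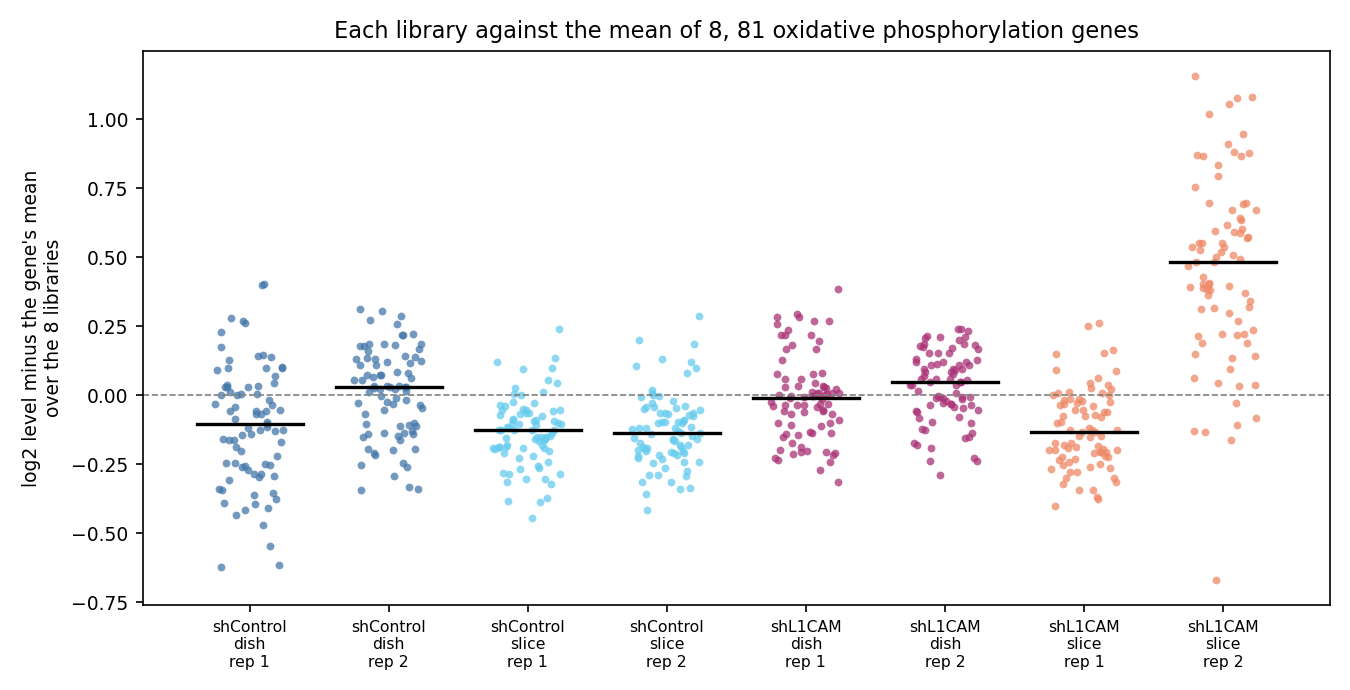
Log2 level of each of 81 oxidative phosphorylation genes in each library, less that gene's mean over the 8 libraries (y axis); points are genes, black lines medians. Replicate 2 of shL1CAM_slice has a median of 0.48, while the other 7 medians lie between -0.14 and 0.05.

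Most members have short transcripts. Their median annotated transcript length was 766 nt, from 323 to 4502 nt, and 95.9% of the genes tested had a longer one. The replicate difference was -0.39 for NDUFS1, the lowest of all members, which has a long transcript of 2394 nt. It reached 1.03 for NDUFA3 (407 nt) and 1.06 for ATP5E, whose reads are few and whose annotated transcript has 1878 nt. An alternative that removed a transcript-length trend from each library is given beside the main values. Whether length, the slice or another property of the library set this difference was not tested.

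**Figure D2:**
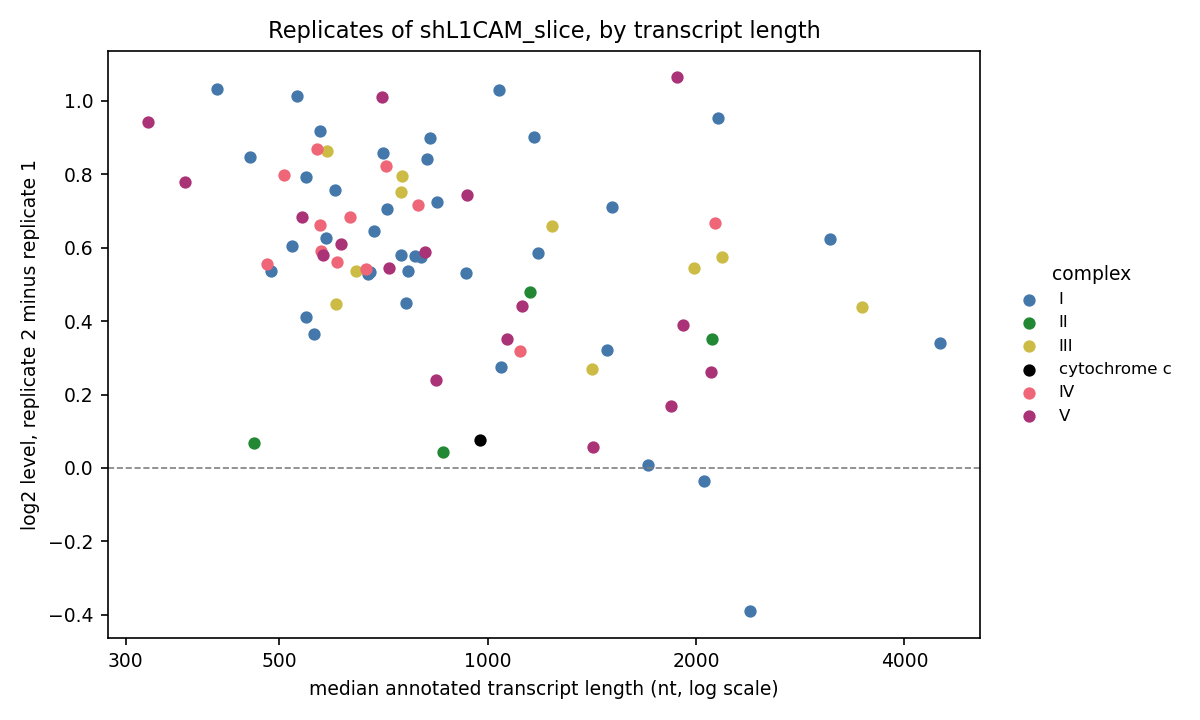
Difference in log2 level between the replicates of shL1CAM_slice (y axis) against median annotated transcript length in nt (x axis, log scale), 81 genes coloured by complex. Of these, 79 lie above 0, and NDUFS1 at -0.39 is the lowest.

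Per kilobase of transcript, the most abundant members were small subunits together with the catalytic subunit of the ATP synthase. UQCRB, the ubiquinone-binding small subunit of complex III, had a mean level of 12841 normalized counts per kb. UQCRQ, another small subunit of that complex, had 7870 per kb. In complex IV, COX4I1, its subunit 4, had 12208 and COX7C 12067. ATP5B (now ATP5F1B), the catalytic beta subunit of the ATP synthase, had 10736 per kb and the highest normalized count of all, with a mean of 19743. NDUFS5 (9706 per kb) and NDUFB3 (9255 per kb) led complex I, and SDHC (8759 per kb) led complex II. The order depends on the annotation: per kilobase of coding sequence ATP5B ranked 17 and SDHC 31. UQCRB shares sequence with the pseudogene UQCRBP1, as UQCRH does with its near copy UQCRHL, so their counts are uncertain. For ATP5E, the epsilon subunit, reads may have gone to its pseudogene ATP5EP2, which held 399 to 844 normalized counts against 55.8 to 194 on ATP5E.

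Complex I had 0.528% and 0.582% of recovered reads in shControl_dish, 0.547% and 0.554% (shControl_slice), 0.582% and 0.588% (shL1CAM_dish), and 0.568% and 0.781% (shL1CAM_slice). Its dish and slice libraries overlapped with the control shRNA. Complex II had 0.0727% and 0.0760% (shControl_dish), 0.0644% and 0.0629% (shControl_slice), 0.0764% and 0.0780% (shL1CAM_dish), and 0.0667% and 0.0696% (shL1CAM_slice). All 4 slice libraries lay below all 4 dish libraries for complex II, a separation that complexes I, III and IV did not show. Complex V was at 0.392% to 0.395% (shControl_slice) and 0.405% in replicate 1 of shL1CAM_slice, under every dish library, but at 0.489% in replicate 2, above all of them. These shares were not tested.

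**Figure D3:**
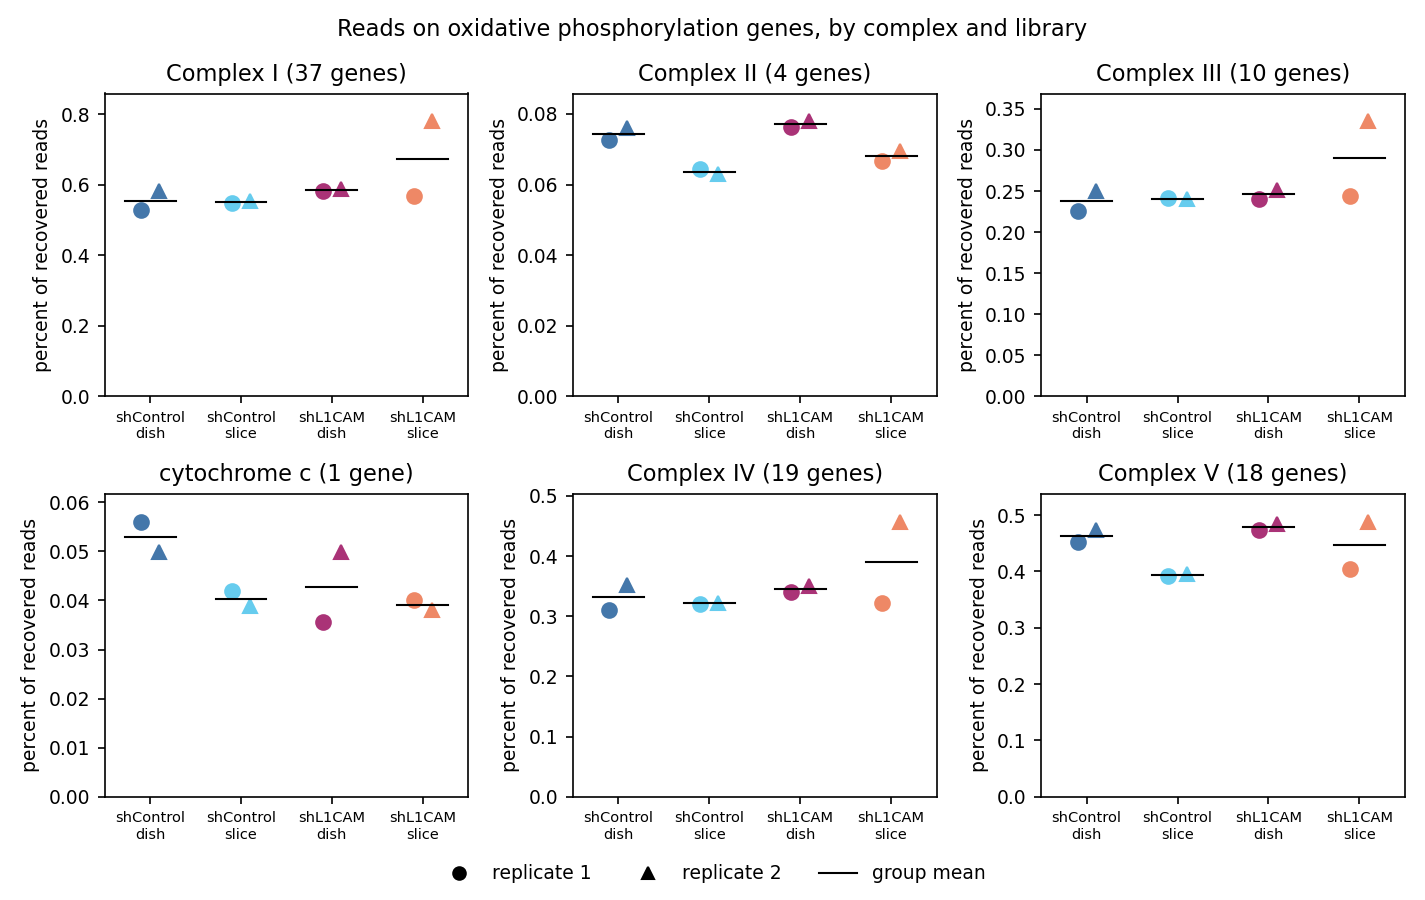
Percent of recovered reads on the members of each complex (y axes start at 0), by group; circles are replicate 1, triangles replicate 2, lines group means. The 4 slice libraries are the lowest for complex II, at 0.0629% to 0.0696%, and replicate 2 of shL1CAM_slice is the highest for complexes I, III, IV and V.

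The first comparison asked what 48 h on the slice did in cells with the control shRNA. Of the 81 members tested, 2 fell and 0 rose at an adjusted p of 0.05 (limma), whereas 14.8% of all genes tested were called, 6.8% higher and 8.03% lower. The members' median log2 fold change was -0.09, against 0.01 for all genes. With replicate 2 of shL1CAM_slice left out, 11 members rose and 23 fell, while 47% of all genes were called, 23.9% higher and 23% lower. With the length trend removed 18 fell and 0 rose. Of 12501 genes, 1702 then fell and 1526 rose, 25.8% in either direction. With all libraries the members called were a smaller share than the background, and without the divergent library a share close to it.

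NDUFA9, an accessory subunit that binds NADPH beside the ubiquinone pocket of complex I, stood at 1628 and 1506 (shControl_dish) and at 944 and 976 (shControl_slice). It was at 1414 and 1458 (shL1CAM_dish) and at 957 and 1211 (shL1CAM_slice). All slice libraries lay below all dish libraries. Its fall with the control shRNA was -0.71 on the log2 scale (SE 0.15, adjusted p = 0.0201). With the L1CAM shRNA the value was -0.42 (adjusted p = 0.0859), and -0.59 without replicate 2 (adjusted p = 0.00112).

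ATP5B had 23579.5 and 23479.8 normalized counts in shControl_dish, 15961 and 15923 (shControl_slice), 22907 and 22546 (shL1CAM_dish), and 15799 and 17746 (shL1CAM_slice). The slice libraries were again below every dish library, with little spread between replicates. It fell by 0.56 on the log2 scale with the control shRNA (SE 0.13, adjusted p = 0.0260) and by 0.44 with the L1CAM shRNA (SE 0.13, adjusted p = 0.0457), or by 0.52 without replicate 2 of shL1CAM_slice. The call with the L1CAM shRNA lay close to the threshold: it was lost with a pseudocount of 10 (adjusted p = 0.0502), TMM scaling (0.0528), edgeR (0.0606) and no filter on low values (0.0987). Leaving out any 1 of the control libraries ended the control calls of ATP5B and NDUFA9 (adjusted p from 0.108 to 0.226), although the values stayed between -0.76 and -0.56.

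**Figure D4:**
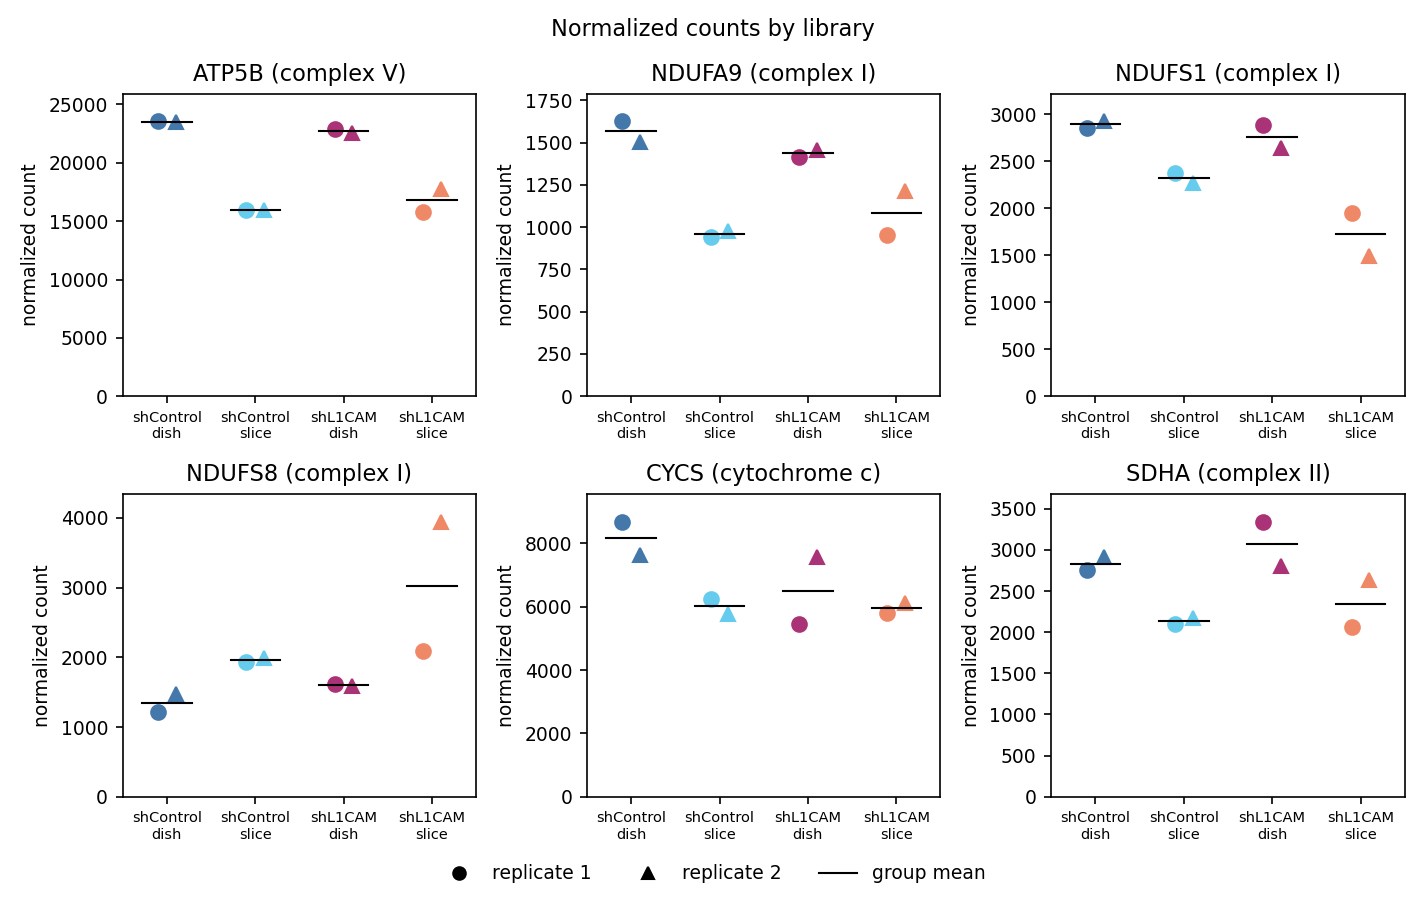
Normalized counts (y axes start at 0) of 6 members by group; circles are replicate 1, triangles replicate 2, lines group means. ATP5B, NDUFA9 and NDUFS1 are lower in every slice library than in every dish library, NDUFS8 is higher in every slice library, and CYCS overlaps with the L1CAM shRNA.

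Within complex I the core subunits lay on both sides of 0. NDUFV1, which carries the NADH-binding flavin, was at 2590.2 and 2651 (shControl_dish) and at 1905 and 1849 (shControl_slice), a log2 fold change of -0.48 that missed the threshold (SE 0.21, adjusted p = 0.158). NDUFS8, an iron-sulfur subunit on the path to ubiquinone, went the other way, from 1219 and 1472 to 1926 and 1995, or 0.55 (adjusted p = 0.185). NDUFV2, the partner of NDUFV1, was at 1913 and 2124 in the dish and 2509.7 and 2544 on the slice, or 0.33 (adjusted p = 0.256). When replicate 2 of shL1CAM_slice was left out these 3 passed, NDUFV1 lower and the others higher. The 7 core subunits had a median of -0.16 and the 30 accessory ones -0.06, with 12 of the latter above 0. Without that library complex I had 6 of 37 members called higher and 8 lower, against 23.9% and 23% of all genes. NDUFB1, at 2672 and 3239 in the dish and 3811 and 3901 on the slice, was among those called higher (0.39, adjusted p = 0.00566), and NDUFA6 among the lower (-0.50, adjusted p = 0.000785).

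All 4 genes of complex II, the succinate dehydrogenase, lay below 0. SDHA, the flavoprotein that oxidises succinate, was at 2752 and 2916 (shControl_dish) and 2103 and 2169.8 (shControl_slice), a log2 fold change of -0.41 (SE 0.16, adjusted p = 0.126). SDHB, its iron-sulfur partner, went from 2517 and 2727 to 2117 and 2034 (-0.34, adjusted p = 0.218). The membrane anchors SDHC and SDHD had -0.18 and -0.21. For each gene both slice libraries were below both dish libraries, and none passed the threshold with all libraries, while SDHA and SDHB passed without replicate 2 of shL1CAM_slice. SDHA has pseudogene copies in the genome that can take up its reads.

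In complex III the large subunits lay below 0 and the small ones on both sides of it. UQCRC2, core protein 2, was at 4435 and 4692 (shControl_dish) and 3319 and 3249 (shControl_slice), a log2 fold change of -0.47 (SE 0.14, adjusted p = 0.0576). The other core protein, UQCRC1, and the subunits that carry the electrons, the Rieske protein UQCRFS1 and cytochrome c1 (CYC1), had -0.30, -0.26 and -0.29. Of 6 small subunits, 4 were above 0. They include UQCRHL, whose means hardly differed (896 in the dish, 904 on the slice), while its near copy UQCRH and UQCR10 were below 0. UQCR11, above 0, was at 2073 and 2406 in the dish and 3141 and 3197 on the slice, or 0.50 (SE 0.23, adjusted p = 0.173). Without replicate 2 of shL1CAM_slice, UQCRC1, UQCRC2, UQCRFS1 and CYC1 passed as lower and UQCRB and UQCR11 as higher. The difference between large and small subunits was not itself tested.

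Cytochrome c, the mobile carrier between complexes III and IV, also lay lower. CYCS was at 8689.98 and 7646 (shControl_dish) and at 6238 and 5779 (shControl_slice), a log2 fold change of -0.44 (SE 0.18, adjusted p = 0.124). It was at 5452 and 7556 (shL1CAM_dish), whose lower library was below those of shControl_slice, and at 5798 and 6112 (shL1CAM_slice). The dish spread with the L1CAM shRNA was larger than the slice difference there (-0.11, adjusted p = 0.681; -0.15 without replicate 2 of shL1CAM_slice).

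In complex IV, 8 of 12 tested members were below 0 with the control shRNA, and none passed. COX5A, at 3938 and 4146 in the dish and 3208 and 3142 on the slice, had -0.35 (adjusted p = 0.246), while COX5B, at 3222 and 3888 and then 3749 and 3842, had 0.10 (adjusted p = 0.814). COX7A2L, which takes part in joining complexes III and IV into supercomplexes, was at 2574 and 2776 in the dish and 3292 and 3409 on the slice (0.33, SE 0.15, adjusted p = 0.172). Both of its slice libraries were above both dish libraries, and it was called higher without replicate 2 of shL1CAM_slice (adjusted p = 0.0072). COX5A and COX8A were then called lower.

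In complex V, 12 of 17 tested members lay below 0 with the control shRNA. The 17 include ATP5S and ATP5SL, which are not structural subunits and lay above 0 (0.37 and 0.12). ATP5F1, the stalk subunit b, was at 3388 and 3210.4 in the dish and 2471 and 2408 on the slice (-0.44, SE 0.16, adjusted p = 0.101). The rotor ring subunit c is made from ATP5G1, ATP5G2 and ATP5G3, which encode the same mature protein. ATP5G1 and ATP5G3 had -0.32 each and ATP5G2 had -0.04, with its slice libraries (4534 and 4605) inside the range of its dish libraries (4422 and 4993). The gamma subunit ATP5C1 had -0.32, the delta subunit ATP5D 0.15 and ATP5E 0.55. With all libraries ATP5B alone passed in this complex. With replicate 2 of shL1CAM_slice left out, 6 of 17 members of the complex were called lower, and ATP5E and ATP5S higher, against 23% and 23.9% of all genes.

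**Figure D5:**
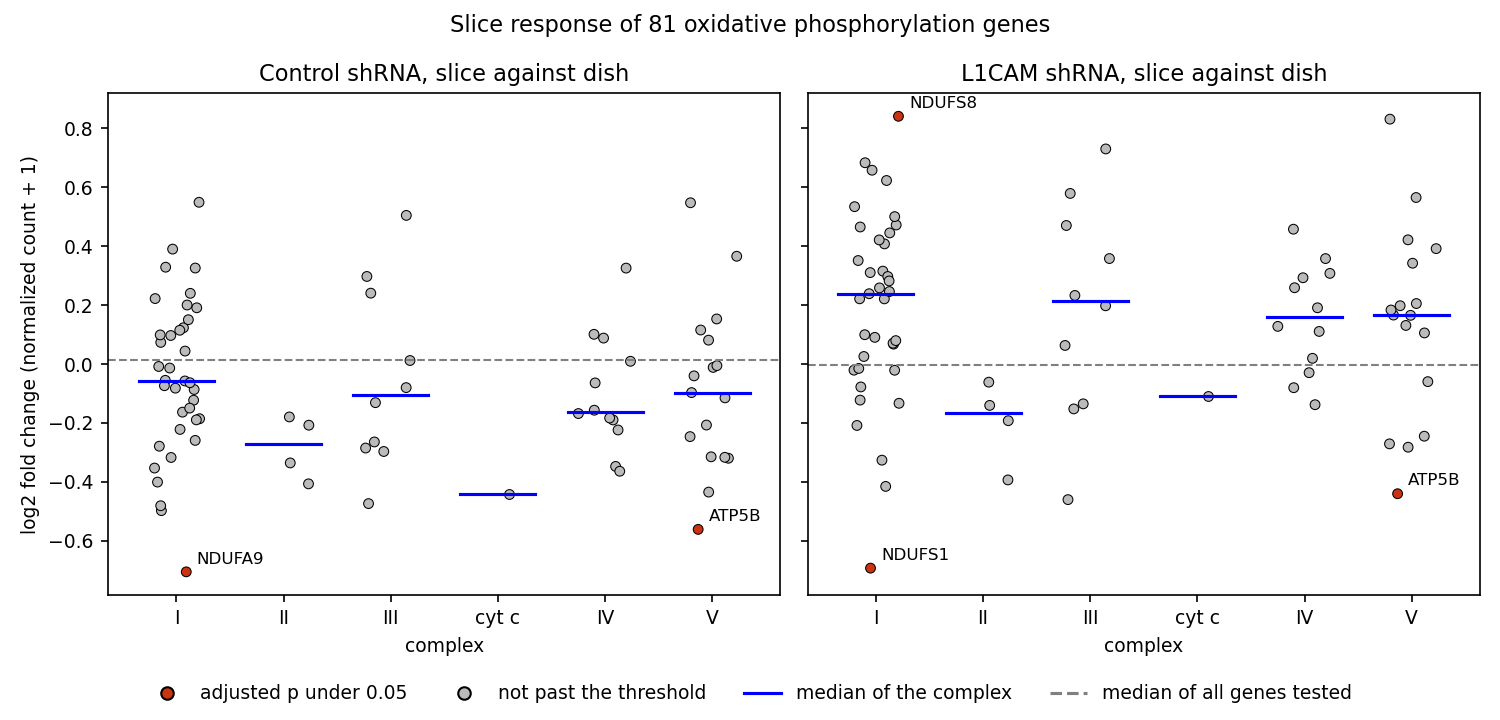
Log2 fold change, slice against dish (y axis), of 81 members by complex, for the control shRNA (left) and the L1CAM shRNA (right); red points passed the threshold, blue lines are medians of a complex and the dashed line that of all genes tested. Complex II lies below 0 in both panels, while the medians of complexes I, III, IV and V are below 0 at left and above 0 at right.

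With the L1CAM shRNA, the slice comparison gave 1 member higher and 2 lower, against 21.3% of all genes called, 10.1% higher and 11.2% lower. The members' median was 0.18, against 0.00 for all genes, and 55 of 81 lay above 0. Without replicate 2 the median was -0.14, with 3 members called higher and 20 lower, against 38.7% of all genes, 19.5% higher and 19.2% lower. Without replicate 1 it was 0.47, with 54 higher and 4 lower, against 57.7%. The direction of the median in this group thus rested on which library was kept. With the length trend removed it was -0.11, with 2 members higher and 14 lower. Of 12501 genes, 1905 were then higher and 1884 lower, 30.3% in either direction.

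NDUFS1, the largest subunit of complex I, which holds several of its iron-sulfur clusters, was at 2853 and 2926 (shControl_dish), 2372 and 2266 (shControl_slice), 2887 and 2635 (shL1CAM_dish), and 1953 and 1489.7 (shL1CAM_slice). Every slice library lay below every dish library, and replicate 2 of shL1CAM_slice, high for most members, was here the lowest of all. Its fall with the L1CAM shRNA was -0.69 (SE 0.16, adjusted p = 0.0181), -0.50 without replicate 2 and -0.89 without replicate 1. With the control shRNA it had -0.32 (adjusted p = 0.208).

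NDUFS8 was at 1614 and 1592 (shL1CAM_dish) and at 2090.2 and 3948 (shL1CAM_slice). Both slice libraries were higher than both dish libraries, and replicate 2 was further above replicate 1 than replicate 1 was above the dish. The rise of 0.84 (SE 0.26, adjusted p = 0.0494) became 0.38 without replicate 2 (adjusted p = 0.0239) and 1.30 without replicate 1. The 3 calls of this comparison were sensitive to other libraries through the spread: leaving out either shL1CAM_dish library ended all of them (adjusted p from 0.0816 to 0.2), either shControl_slice library also ended all of them (0.0513 to 0.124), and either shControl_dish library ended those of NDUFS8 and ATP5B (0.0851 to 0.098).

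All 4 complex II genes were again below 0. SDHA was at 3345 and 2805 (shL1CAM_dish) and 2064 and 2633 (shL1CAM_slice), or -0.39 (adjusted p = 0.113) and -0.57 without replicate 2. SDHB overlapped between dish (2278 and 2407) and slice (1800 and 2507), as did SDHC (4234 and 4521, then 4096 and 4291). UQCRC2 was at 4524 and 4147 in the dish and 2867 and 3455 on the slice (-0.46, SE 0.14, adjusted p = 0.0509), below every dish library. UQCR11 was at 2627 and 2716 in the dish and 3364 and 5839.7 on the slice (0.73, SE 0.23, adjusted p = 0.0536). Without replicate 2 both passed, UQCRC2 at -0.60 and UQCR11 at 0.33. In that fit, 16 members were called lower with both shRNAs, which is 69.6% of those lower with the control shRNA and 80% of those lower with the L1CAM shRNA, and for all genes tested these shares were 71.9% and 86.2%. The 3 called higher with the L1CAM shRNA, NDUFS8, UQCR11 and ATP5S, were among the 11 of the control shRNA. The comparisons share no library, but they share the estimate of each gene's spread.

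The next comparison set the L1CAM shRNA against the control shRNA on the slice, using the same slice libraries as above. With all libraries, limma called 0 of 81 members (13 at an unadjusted p under 0.05), as did edgeR and DESeq2, against 0.646% of all genes for limma, 0.661% for edgeR and 2.63% for DESeq2. The members' median was 0.29, with 75 of 81 above 0. When replicate 2 of shL1CAM_slice was left out the median was -0.00 and 0 members were called, against 4.67% of genes. Without replicate 1 it was 0.58, with 70 members called higher and 1 lower, against 53%. Whether members were called thus changed with the knockdown library that was kept.

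Among the members with the smallest p, ATP5D was at 1085 and 1131 (shControl_slice) and at 1302 and 2627 (shL1CAM_slice) (0.74, SE 0.27, adjusted p = 0.232; 0.23 without replicate 2). NDUFS7, an iron-sulfur core subunit of complex I, was at 982 and 1075 and then at 1232 and 2516.5 (0.78, adjusted p = 0.232; 0.26 without). NDUFC2, at 178 and 168 and then 231 and 297, had 0.60 (SE 0.20, adjusted p = 0.204; 0.41 without). In each, replicate 1 was above both control libraries by less than replicate 2 was above replicate 1, except for NDUFC2, where the steps were of similar size. SDHC, at 3601 and 3475 and then 4096 and 4291, had 0.24 (adjusted p = 0.314; 0.21 without) with replicates close together. UQCR10, a small subunit of complex III, had 0.58 (adjusted p = 0.244) and NDUFA4 0.53 (adjusted p = 0.242), or 0.20 each without replicate 2.

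In the dish the knockdown changed no member past the threshold. Limma called 0 of 81, with 0 at an unadjusted p under 0.05, and edgeR and DESeq2 also called 0, against 0.307% of all genes for limma, 0.592% for edgeR and 1.41% for DESeq2. The median was 0.04, with 51 above 0 and a range from -0.34 (CYCS) to 0.49 (NDUFA7). NDUFA7, an accessory subunit of complex I, was at 831 and 969.5 (shControl_dish) and at 1279.8 and 1246 (shL1CAM_dish), without overlap (SE 0.23, adjusted p = 0.559). Without replicate 2 of shL1CAM_slice, which takes no part in this contrast other than through the spread, NDUFA7, ATP5D (0.33) and NDUFB10 (0.33) were called higher, against 11% of genes called in either direction and 4.49% higher. For CYCS the dish groups did not overlap, at 5452 and 7556 against 8689.98 and 7646, but lay close. In complexes II to V the smallest p belonged to SDHC (0.13), UQCR10 (0.30), COX7A2 (-0.21) and ATP5G2 (0.25), none past the threshold.

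The interaction, the difference between the slice responses of the shRNAs, was past the threshold for 0 members (0 at an unadjusted p under 0.05) and for 0% of all genes. EdgeR and DESeq2 also called 0 members and 0% of genes, as did limma without replicate 2 of shL1CAM_slice. The median was 0.25, with 78 of 81 above 0, and -0.07 without replicate 2 of shL1CAM_slice. Without replicate 1, 59 members were called higher and 1 lower, against 31.8% of genes. By complex the smallest p belonged to NDUFS1 (-0.38), SDHB (0.20), UQCRH (0.36), COX8A (0.47) and ATP5G1 (0.48), each with an adjusted p of 0.97. Without replicate 2 of shL1CAM_slice these were -0.18, -0.04, 0.14, 0.08 and 0.14. The interaction draws on all groups and so shares its libraries with the contrasts above.

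Promoters were available for 71 members from RefSeq (GRCh38.p14), as 250 bases before to 50 bases after the start, and were searched on both strands for core motifs of factors known to act on these genes. CGCANGCGC, the core of the NRF1 site, occurred in 33.8% of member promoters and in 9.01% of all 27305 genes with an entry. CCGGAAG, the core of ETS-family sites such as that of GABP, occurred in 28.2% and 12.2%, and AAGATGGCG, a core of the YY1 site, in 12.7% and 2.14%. The ETS and YY1 cores can share the letters AAG. Among 9 tested members with the YY1 core, log2 fold changes with the control shRNA on the slice ran from -0.71 to -0.01 with a median of -0.28, against -0.06 for the 57 without it. The other motifs showed smaller gaps there, with medians of -0.115 with and -0.064 without the NRF1 core. For the ETS core these were -0.055 and -0.083. With the L1CAM shRNA, members with the YY1 core ran from -0.42 to 0.34. Their median was -0.015, against 0.198 for members without that core. Both medians include replicate 2 of shL1CAM_slice, and values without that library are not given. Such matches are descriptions of letters, not sites in use, and these values were not tested.

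The promoters shown belong to NDUFA9, called lower with the control shRNA, NDUFS1, called lower with the L1CAM shRNA, and SDHA and SDHB of complex II. ATP5B had no entry in the reference used. Other members below 0 with the control shRNA, such as NDUFV1, UQCRC2, CYCS and ATP5F1, held none of these motifs. The promoters printed therefore do not stand for all members that lay lower. Each is given 5′ to 3′ on the gene's strand, from 250 bases before to 30 bases after the start, with matches to a motif or its reverse complement in capitals. NDUFA9 (chr12:4648864-4649143, plus strand) holds the NRF1 core and the YY1 core. SDHB (chr1:17054003-17054282, minus strand) holds the ETS and YY1 cores, SDHA (chr5:218070-218349, plus strand) holds 4 copies of the NRF1 core, and 1 of the NDUFS1 entries (chr2:206159415-206159694, minus strand) holds the ETS core, while another start listed for NDUFS1 has no match over the same length.
NDUFA9: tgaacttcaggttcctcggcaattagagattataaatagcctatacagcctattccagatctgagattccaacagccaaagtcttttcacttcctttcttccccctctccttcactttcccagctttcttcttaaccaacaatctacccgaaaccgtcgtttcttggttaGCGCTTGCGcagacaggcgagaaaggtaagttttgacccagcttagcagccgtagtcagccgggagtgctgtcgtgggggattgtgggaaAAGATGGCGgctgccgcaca
SDHB: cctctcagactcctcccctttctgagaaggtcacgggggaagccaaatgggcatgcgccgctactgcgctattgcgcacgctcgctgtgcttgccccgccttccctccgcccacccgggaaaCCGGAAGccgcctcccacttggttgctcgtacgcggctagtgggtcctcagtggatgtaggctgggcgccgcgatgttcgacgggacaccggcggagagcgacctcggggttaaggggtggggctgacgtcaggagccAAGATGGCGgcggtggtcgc
SDHA: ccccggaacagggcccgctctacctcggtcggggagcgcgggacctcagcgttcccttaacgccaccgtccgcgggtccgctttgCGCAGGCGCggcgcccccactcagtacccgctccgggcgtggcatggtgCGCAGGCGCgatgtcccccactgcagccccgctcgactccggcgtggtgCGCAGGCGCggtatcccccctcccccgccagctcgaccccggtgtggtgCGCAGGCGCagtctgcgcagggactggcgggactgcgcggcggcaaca
NDUFS1: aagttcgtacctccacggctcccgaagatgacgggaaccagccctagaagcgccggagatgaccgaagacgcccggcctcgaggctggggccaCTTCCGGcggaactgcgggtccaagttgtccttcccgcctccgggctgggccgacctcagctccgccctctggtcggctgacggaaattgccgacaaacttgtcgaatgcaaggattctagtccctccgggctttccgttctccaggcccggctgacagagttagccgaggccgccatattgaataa
The transcripts of the factors themselves did not pass the threshold with all libraries: with the control shRNA, NRF1 had -0.35 (adjusted p = 0.16), GABPA 0.23 (adjusted p = 0.359) and YY1 0.37 (adjusted p = 0.125). With replicate 2 of shL1CAM_slice left out, NRF1 (adjusted p = 0.024) was called lower and YY1 (adjusted p = 0.0028) higher. PPARGC1A, a coactivator of mitochondrial genes in energy-demanding tissue, was at 0 to 2.77 normalized counts in all libraries, at or under the limit that a count of 0 allows.

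Other lists of mitochondrial genes were read against the same background. Of 27 genes of the tricarboxylic acid cycle and pyruvate dehydrogenase, 4 fell and 2 rose with the control shRNA on the slice, and 6 fell and 2 rose with the L1CAM shRNA. Over all genes tested 14.8% and 21.3% were called, 8.03% and 11.2% as lower. Fumarase (FH), which follows complex II in the cycle, went from 2108 and 2118 (shControl_dish) to 1191 and 1204 (shControl_slice), and from 1862 and 1882 (shL1CAM_dish) to 1071 and 1402 (shL1CAM_slice). It fell by 0.82 (adjusted p = 0.0133) and by 0.61 (adjusted p = 0.0261). Citrate synthase (CS), the lipoamide dehydrogenase DLD and the pyruvate dehydrogenase subunit PDHA1 fell with both shRNAs. Pyruvate carboxylase (PC) rose by 1.05 (adjusted p = 0.0122) and 0.81, and the kinase PDK2, which inhibits pyruvate dehydrogenase, by 1.01 (adjusted p = 0.0329) and 1.12; PDK2 was low, at 81.2 to 325. PDK1, another such kinase, fell with the L1CAM shRNA by 0.97 (adjusted p = 0.0174).

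Of 25 genes for expression of mitochondrial DNA and its nuclear regulators, 4 fell with the control shRNA, 5 fell with the L1CAM shRNA and 0 rose. These counts are near the shares of all genes called in either direction, 14.8% and 21.3%. They are above the shares called lower, 8.03% and 11.2%. Whether the list differs from that background was not tested. GFM1, a mitochondrial elongation factor, went from 1551 and 1469 to 802 and 754 with the control shRNA and from 1559 and 1375 to 659.5 and 474 with the L1CAM shRNA. Its log2 fold changes were -0.96 (adjusted p = 0.0126) and -1.39 (adjusted p = 0.00279), with no overlap between slice and dish. LRPPRC, which stabilises mitochondrial messenger RNA, the initiation factor MTIF2 and the transcription factor TFB2M fell with both shRNAs. The medians of this list were -0.35 and -0.26. All of these calls held without replicate 2 of shL1CAM_slice.

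Of 52 assembly factors, 2 fell with the control shRNA and 2 fell and 2 rose with the L1CAM shRNA, under the 14.8% and 21.3% of all genes. SCO1, a copper carrier for complex IV, fell with both (-0.79, adjusted p = 0.0144, and -0.59, adjusted p = 0.0283). Of 22 genes for coenzyme Q and other electron carriers, 3 and 2 fell, among them the coenzyme Q methyltransferase COQ3 (-0.95, adjusted p = 0.0125, and -0.74). Of 8 tested carriers and channels that exchange ADP, ATP and phosphate, VDAC1 of the outer membrane fell with both (-0.59, adjusted p = 0.0247, and -0.47). With the control shRNA the medians were -0.28 (cycle), -0.35 (mitochondrial DNA), -0.02 (assembly factors), -0.27 (coenzyme Q) and -0.38 (carriers), against 0.01 for all genes. With the L1CAM shRNA they were -0.27, -0.26, 0.13, -0.11 and -0.24, against -0.002 for all genes. These medians were not tested. When replicate 2 of shL1CAM_slice was left out, those with the L1CAM shRNA became -0.33, -0.33, -0.02, -0.28 and -0.43, against 0.01 for all genes. Each call named from these lists also passed without that library. In the knockdown contrasts and the interaction, limma called 0 members of these 5 lists with all libraries.

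The tissue-restricted and stress isoforms were near or at the counting limit. COX4I2, a hypoxia-linked form of COX4I1, had 1 read in all libraries together, and the muscle form COX6A2 and COX7B2 had 0 reads. The muscle form COX7A1 had 21 reads in 8 libraries, the testis form COX6B2 33, COX8C 13 and ATP5L2 17. NDUFA4L2, a hypoxia-inducible paralogue of NDUFA4, was at 4.28 to 7.64 normalized counts in every library, with no group apart, while NDUFA4 was at 1408 to 2615. These 8 members were under the filter and entered no test. Their counterparts COX4I1, COX6A1, COX6B1, COX7A2, COX7B and COX8A were all tested, and none passed the threshold in any contrast with all libraries.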

How the data were processed

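Ribosome-bound RNA was pulled down with anti-EGFP antibodies and made into poly-A libraries with a kit that does not mark strand, per the labels' protocols. The authors deposited 1 table of normalized counts, a signal on the scale of reads divided by a size factor per library. Per the submitters' processing notes, FastQC 0.11.3, HTSeq 0.5.4, DESeq2 and hg19 were used; neither aligner nor annotation is named there. Whole reads were recovered for 100% of values (tolerance 1e-06), which gave the depths. Values were tested as log2(normalized count + 1) with limma 3.58.1 in R 4.3.3, so fold changes of low genes are understated. The 13010 of 23368 genes with a mean of at least 10 entered 1 fit of 4 group means, with a trended prior, 5 contrasts and Benjamini-Hochberg adjustment over all genes at 0.05. A called gene is one past that threshold. EdgeR 4.0.16 and DESeq2 1.42.0 on recovered reads, TMM scaling, other filters and pseudocounts, library weights, a replicate block, a length correction and leaving out each library were alternatives. Lengths, available for 96.1% of genes tested, came from reference annotation of another build. The fit was tested on simulated data.

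Members and lists were chosen with earlier results of these data known. Values are given for members past the threshold, the 2 most abundant per length and the smallest p in each complex, and isoform pairs; other members named to fill out a role were chosen after their values were seen.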

Additional observations from a re-analysis of the deposited data

How the results depend on the processing

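Leaving out 1 library at a time moved the members' median from -0.17 to -0.02 for the slice with the control shRNA, from -0.14 to 0.47 for the slice with the L1CAM shRNA, from -0.00 to 0.58 for the knockdown on the slice, from -0.01 to 0.12 for the knockdown in the dish and from -0.07 to 0.53 for the interaction. Members called ranged over 0 to 34, 0 to 58, 0 to 71, 0 to 3 and 0 to 60. Without replicate 2 of shL1CAM_slice, the median of the slice with the L1CAM shRNA changed sign (-0.1423). So did those of the knockdown on the slice (-0.0045) and of the interaction (-0.0658). For the slice with the control shRNA, 1 member was called with no filter on low values, 40 from the 4 libraries of the contrast alone, 37 with library weights and 18 with the length trend removed. For the slice with the L1CAM shRNA the counts were 1, 0, 1 and 16, with 1 under TMM scaling and 9 by DESeq2, and the median with the length trend removed was -0.11. For the knockdown in the dish, the 4 libraries alone and library weights called 1 each. The share of all genes called changed with the setting too. With the control shRNA it was 14.8% in the main fit and 25.8% with the length trend removed. With the L1CAM shRNA these shares were 21.3% and 30.3%. Shares for the 4 libraries alone and for library weights are not given here, so those counts are not results about the members. The cause of these shifts was not tested. With the replicate block, members called were 2, 3, 0, 0 and 0. With the L1CAM shRNA the block gave 2 higher and 1 lower in place of 1 higher and 2 lower, and ATP5B was not called (adjusted p = 0.0715). Of 6 correlations between same-numbered libraries, 3 were positive, so the numbers were not taken to pair the libraries. Depth limits the 8 members under the filter, with 0 to 45 reads over 8 libraries.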
